A study of Saccharomyces cerevisiae with 6 samples.

Results

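The arginine synthesis genes of budding yeast, Saccharomyces cerevisiae, are described here as 9 genes, namely ARG1, ARG2, ARG3, ARG4, ARG5,6, ARG7, ARG8, CPA1 and ORT1. They were chosen by name among the 5795 protein-coding genes of the deposited table, all 9 were found, and all 9 passed the filter on low values, so that no member was lost. Their transcripts were read from stranded libraries of total RNA from which rRNA had been removed, in 3 groups of 2 libraries. These were gat1-delta (gat1Δ) cells in medium with glutamine, gat1Δ cells in medium with proline, and dal80-delta (dal80Δ) cells in medium with glutamine. Gat1 and Dal80 are GATA-family transcription factors that are known to activate and to repress, respectively, many genes by which yeast lives on poor nitrogen sources such as proline. The labels call the replicates biological and say nothing further on the cultures, the strain background or the age of the cultures. No wild-type library was analysed here, so neither comparison shows the effect of a deletion against an intact strain.

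Arginine is built from glutamate by way of ornithine. The acetylated intermediates are made in the mitochondrion, ornithine is carried out to the cytosol, and carbamoyl phosphate and aspartate are added there. In yeast some genes of the pathway are known to be repressed by arginine through the ArgR/Mcm1 complex, made of Arg80, Arg81, Arg82 and Mcm1. The pathway is also known to be switched on by Gcn4, the activator of general amino acid control. CPA1 is known for a further brake: its mRNA leader carries a short open reading frame for the arginine attenuator peptide, which stalls ribosomes when arginine is plentiful.

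The core sequence bound by Gcn4, TGACTC, was looked for on both strands of the 500 bases before the start of each open reading frame, in the RefSeq R64 genome. All 9 genes held it, at 13 sites in all, and 4 of them held it more than once, as against 12.9% of 5731 windows of the same length over all genes with at least 1 site and 1.48% with more. At 8 of the 13 sites, 1 in each gene except ARG2, a further A followed, a form found in 4.10% of the 5731 windows and chosen for display after the sites had been seen. The GATA-factor motif GATAAG was held by 5 of the 9 windows (ARG1, ARG4, ARG5,6, CPA1 and ORT1), against 22.7% of all windows. More than 1 such site was held by 3 of the 9 (ARG1, ARG4 and CPA1), against 3.70% of all windows. These matches are letters in a window and show no binding. The 8 longer sites are shown because they are what the genes share upstream of their start, each on the strand of its gene with the motif in capitals, and the ARG2 site is shown last, with its 6-base core, read on the opposite strand, in capitals.
ARG5,6 (chr5:295176-295204, plus strand): tcttatccgaaTGACTCAgtctacatcaa
ARG8 (chr15:58568-58596, plus strand): agctcgctatgTGACTCActtaaagtaca
ARG7 (chr13:396514-396542, minus strand): gacaggtaggaTGACTCActgcgtaattc
ORT1 (chr15:571021-571049, minus strand): gttctgcatcgTGACTCAccttgagctcg
CPA1 (chr15:882404-882432, plus strand): ggaagggtgttTGACTCAtcatcgcatcg
ARG3 (chr10:268474-268502, plus strand): gggtcacgtcgTGACTCAtatgctttctt
ARG1 (chr15:218855-218883, plus strand): tgattttttagTGACTCAtgtcgcatttg
ARG4 (chr8:141564-141592, minus strand): tagtagatgaaTGACTCActttttggata
ARG2 (chr10:306030-306059, plus strand): gatcttcccatgGAGTCAtaagcacgttcg

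The distance from the first motif base to the start of the open reading frame differed among the genes. It was 90 bases in ARG2, 152 in ARG7, 179 in ARG4, 180 in ARG8, 223 in ARG5,6, 231 in ORT1, 314 in ARG3, 345 in ARG1 and 484 in CPA1 for the sites shown. CPA1 has the longest distance, and its window also holds the open reading frame of the attenuator peptide, where the GATAAG match at 126 bases lies. ARG1 had the highest level of the 9 in proline, and 250 bases of its upstream region (build R64, chr15:218811-219060, plus strand) hold both of its core sites, in capitals. Neither of its GATAAG matches, at 405 and 62 bases before the start, lies whole within this stretch.
ARG1 upstream: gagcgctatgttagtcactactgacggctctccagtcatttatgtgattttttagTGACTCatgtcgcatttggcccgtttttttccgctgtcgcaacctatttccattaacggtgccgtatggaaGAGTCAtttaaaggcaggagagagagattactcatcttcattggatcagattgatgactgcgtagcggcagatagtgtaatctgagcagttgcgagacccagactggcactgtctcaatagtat

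**Figure D1:**
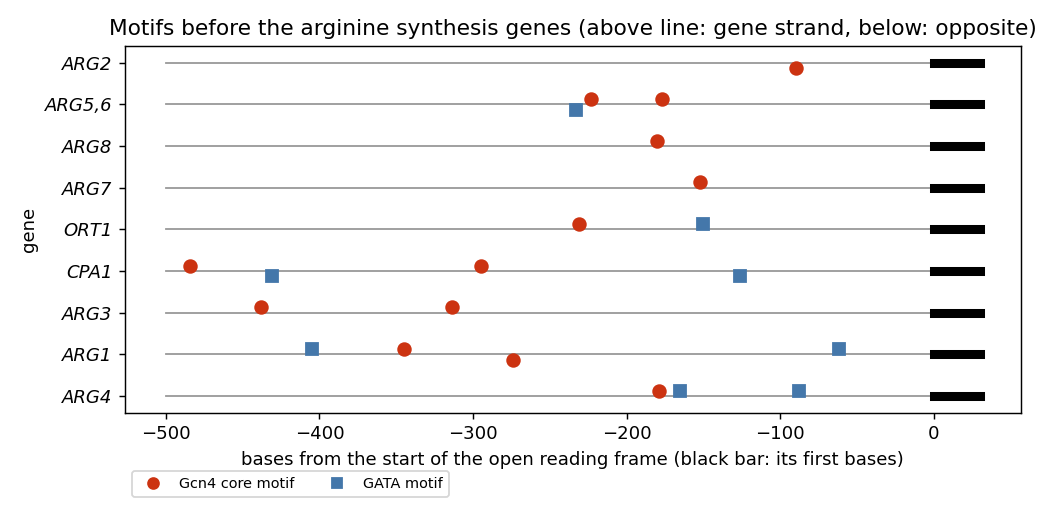
Positions of the core motif bound by Gcn4 (circles) and of the GATA motif (squares) in the 500 bases before each open reading frame, with the distance in bases on the x axis and genes in the order of the pathway. Marks above a line lie on the strand of the gene and marks below it on the opposite strand. Every gene has at least 1 circle, and 5 of 9 have a square.

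The libraries held between 17009715 and 34718641 recovered reads, and the 9 genes had between 339 reads (ARG2) and 138715 reads (ARG1) in a library. ARG2 had the fewest reads of the 9 in each library, and ARG4 the most in the glutamine libraries, so counting error weighs most on ARG2. The deleted genes were read first. GAT1 had 2, 2, 3 and 2 reads in the 4 gat1Δ libraries and 1603 and 1062 in dal80Δ, while DAL80 had 1 and 0 reads in dal80Δ, where a count of 0 allows up to 3 for counting error alone. In gat1Δ cells DAL80 had 2 and 1 reads in glutamine, so its lack of reads in glutamine cannot be credited to the deletion rather than to the medium. A mating-type transcript, that of MFA2, also differed, between the strains and, within gat1Δ, between the groups on glutamine and on proline. The density of MFA2, an a-factor gene, was 37.7 and 33.8 in dal80Δ, against 0.0599 and 0.0380 in gat1Δ cells on glutamine and 4.74 and 3.99 on proline, and its part in the results below was not tested.

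Levels are given as the authors' normalised density, scaled reads per base of the gene, which allows genes of different length to be set side by side. In gat1Δ cells in glutamine the last enzymes of the pathway stood highest. ARG4 (YHR018C, chromosome 8, 140011 to 141402, minus strand), for argininosuccinate lyase, which releases arginine, had a density of 11.3 ± 0.972 (SD, n = 2), and ARG1 (YOL058W, chromosome 15, 219211 to 220473, plus strand), for argininosuccinate synthetase, had 6.82 ± 0.249. ARG2 (YJL071W, chromosome 10, 306132 to 307856, plus strand), for acetylglutamate synthase, the first enzyme, was lowest at 0.166 ± 0.00902. The density of the highest member was 61.4 and 75.0 times that of the lowest in the 2 libraries. The full order was ARG4, ARG1, CPA1, ARG7, ARG5,6, ARG8, ARG3, ORT1 and ARG2, and only the neighbours ARG8 and ARG3 overlapped between their 2 libraries. In both libraries 8 of 9 members, all but ARG2, lay above the median density of the tested genes.

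The first comparison set proline against glutamine in gat1Δ cells. These groups also differed in MFA2, as given above, and the part of the medium alone was not tested. All 9 genes rose in proline, and in none did the libraries of both media overlap. The median log2 fold change was 2.57, with a range from 1.81 (ARG4) to 4.76 (ARG3), beside a median of 0.50 over the 5594 genes tested. Of all tested genes 56.5% rose by the same test and 15.1% fell, and 65.9% had both proline libraries above both glutamine libraries, so both a call and a separation of the libraries are common here. Of the tested genes 6.88% rose as much as the least changed member, and 2.41% as much as the median member. Rescaling by TMM factors, which assume that most genes do not change, brought the median of all genes to 0.06 and left 33.8% higher and 29.8% lower. The 9 genes still rose under it, with a median of 2.06 and a range from 1.31 to 4.26. They also rose under the other scalings and tools, where the share of all tested genes called higher was 31.4% with RLE scaling, 29.5% with snoRNA scaling, 33.5% with edgeR's quasi-likelihood test, 29.5% with DESeq2 and 55.5% with the replicate number as a block. Tests are limma's moderated test on log2 density with Benjamini-Hochberg adjustment over all tested genes, and an exact permutation test of 2 libraries against 2 could not go below p = 0.333. The scaled reads of all genes summed to 11821954 in gat1Δ proline replicate 2, the lowest sum, and to 11822463 in gat1Δ glutamine replicate 2, the highest. Density thus follows the share of these reads that a gene takes and is not an amount per cell. In such bulk samples more RNA per cell, more cells that express a gene and a fall of other transcripts cannot be told apart by density.

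**Figure D2:**
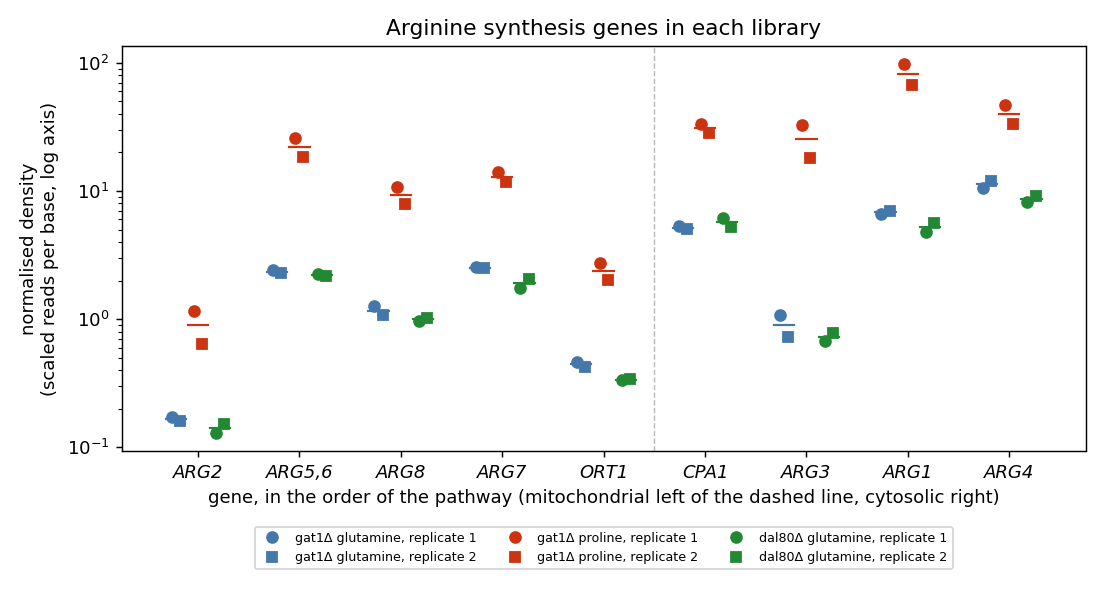
Normalised density (scaled reads per base, log axis) of each gene in each library, in the order of the pathway, with circles for replicate 1, squares for replicate 2 and a short line at the mean of the 2. The proline libraries lie above all 4 glutamine libraries in every gene, for example at 97.1 and 67.3 for ARG1 against 4.76 to 6.996.

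The mitochondrial genes rose by 4.69 to 9.20 times. ARG2 had densities of 0.172 and 0.159 in glutamine and 1.16 and 0.640 in proline, or 2.23 ± 0.24 as a log2 fold change with its SE (adjusted p = 6.3e-05), and it remained the lowest member. ARG5,6 (YER069W, chromosome 5, 295410 to 298001, plus strand) encodes a precursor that is cut into acetylglutamate kinase and the reductase of the following step. It had densities of 2.42 and 2.28 in glutamine and of 26.1 and 18.3 in proline, the largest rise among the mitochondrial members (log2 3.20 ± 0.17, adjusted p = 1.92e-06). ARG8 (YOL140W, chromosome 15, 58759 to 60030, plus strand), for acetylornithine aminotransferase, had 1.26 and 1.07 in glutamine and 10.7 and 7.94 in proline (log2 2.96 ± 0.17, adjusted p = 2.35e-06).

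ARG7 (YMR062C, chromosome 13, 395054 to 396379, minus strand) encodes ornithine acetyltransferase, which frees ornithine and hands the acetyl group back to glutamate. Its density was 2.57 and 2.49 in glutamine and 14.04 and 11.7 in proline, a log2 fold change of 2.33 ± 0.15 (adjusted p = 4.26e-06). ORT1 (YOR130C, chromosome 15, 569929 to 570807, minus strand), for the carrier that exports ornithine from the mitochondrion, had 0.461 and 0.426 in glutamine and 2.76 and 2.01 in proline (log2 2.35 ± 0.16, adjusted p = 7.08e-06). Both genes rose about 5-fold, by 5.04 times with a 95% interval of 4.002 to 6.34 for ARG7, and by 5.11 times with an interval of 3.95 to 6.61 for ORT1.

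The cytosolic genes held both the largest and the smallest rise. ARG3 (YJL088W, chromosome 10, 268799 to 269815, plus strand), for ornithine carbamoyltransferase, which makes citrulline, had densities of 1.07 and 0.721 in glutamine and of 32.8 and 18.2 in proline. That is a 27.0-fold rise with a 95% interval of 17.6 to 41.6 (log2 4.76 ± 0.27, adjusted p = 2.6e-06), and it placed ARG3 18th among the 5594 genes ordered by log2 fold change. ARG4 had the highest level of the 9 in glutamine and the smallest rise, from 10.6 and 11.9 to 47.0 and 33.3 (3.52-fold, interval 2.64 to 4.69, log2 1.81 ± 0.18, adjusted p = 4.46e-05). Its place depends on the pseudocount, since with one 10 times larger ARG2 had the smallest rise, at 1.48 on the log2 scale against 1.80 for ARG4. The intervals of ARG3 and ARG4 did not overlap, while the difference between the genes was not itself tested.

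ARG1 had densities of 6.64 and 6.996 in glutamine and of 97.1 and 67.3 in proline, a log2 fold change of 3.56 ± 0.19 (adjusted p = 1.73e-06). By density it was 296th and 274th among the tested genes of the glutamine libraries and 8th and 11th in proline. CPA1 (YOR303W, chromosome 15, 882899 to 884134, plus strand), for the small subunit of the carbamoyl phosphate synthetase that takes its nitrogen from glutamine, had 5.31 and 5.02 in glutamine and 33.3 and 28.2 in proline (log2 2.57 ± 0.15, adjusted p = 2.6e-06). Its proline libraries were the nearest to each other among the 9 genes, at a gap of 0.24 on the log2 scale.

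**Figure D3:**
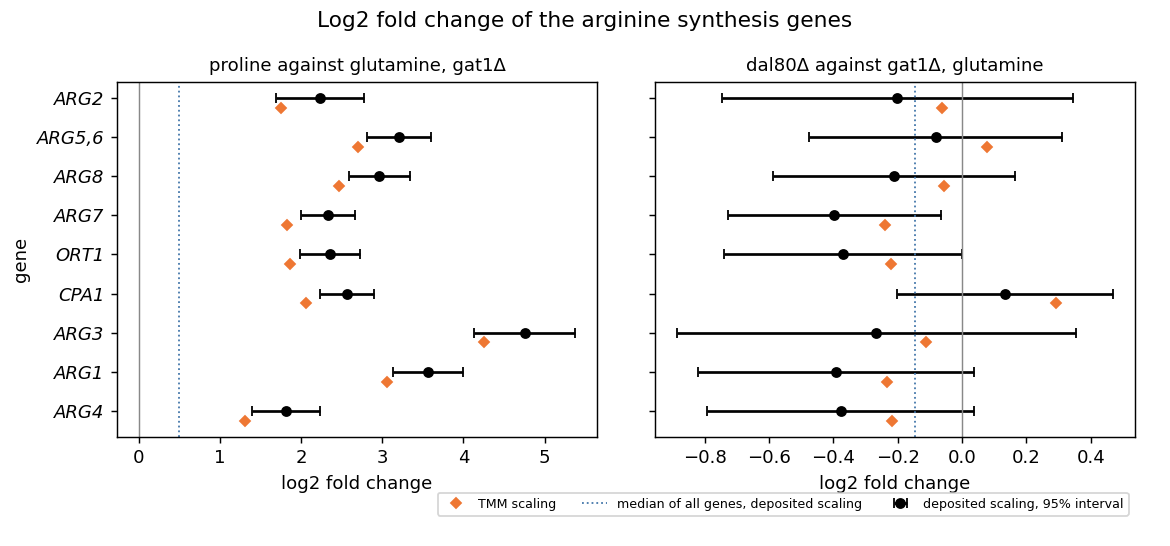
Log2 fold change of each gene for proline against glutamine in gat1Δ (left) and for dal80Δ against gat1Δ in glutamine (right), with 95% intervals from limma, TMM-scaled values as diamonds and the median of all tested genes as a dotted line. On the left all 9 intervals lie above 0, and on the right none of the 9 genes was called.

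The order of the levels changed with the medium. In proline it ran ARG1, ARG4, CPA1, ARG3, ARG5,6, ARG7, ARG8, ORT1 and ARG2, and ARG3 had moved from the seventh to the fourth place. ARG4, CPA1, ARG3 and ARG5,6 overlapped with their neighbours in this order, while ARG1 lay above and ARG7, ARG8, ORT1 and ARG2 lay below without overlap. The density of ARG4 was 1.59 and 1.71 times that of ARG1 in glutamine, and 0.484 and 0.495 times in proline. Across the 9 genes the level in glutamine and the log2 rise had a rank correlation near 0 (Spearman's rho = -0.0500 over 9 genes that share the same libraries).

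As a share of all reads over genes, the 9 genes took 3.10% and 2.20% in proline. In glutamine they took 0.362% and 0.369% in the gat1Δ strain and 0.301% and 0.317% in the dal80Δ strain. ARG1 supplied 19.6% and 20.3% of these reads in gat1Δ cells on glutamine, 33.4% and 32.6% on proline, and 16.9% and 19.1% in dal80Δ cells. The proline libraries thus stood apart in both measures, and in neither did they overlap with any glutamine library.

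**Figure D4:**
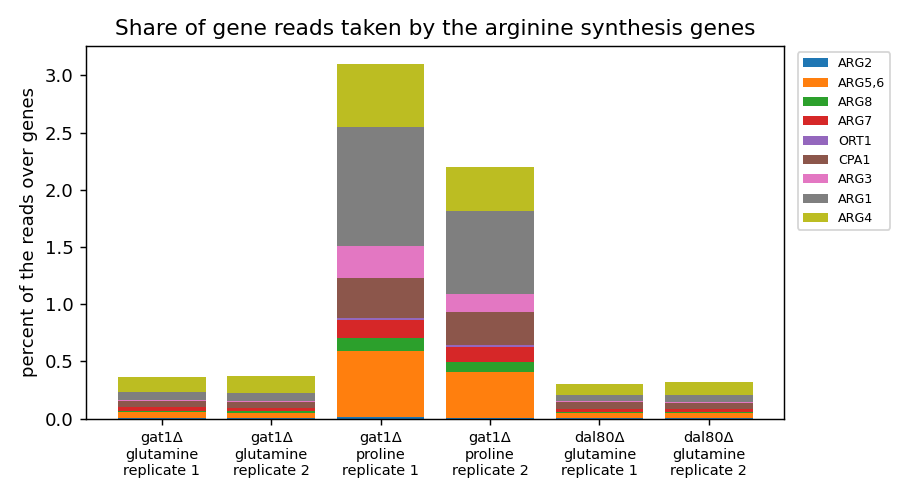
Percent of the reads over genes that each of the 9 genes took in each library, stacked in the order of the pathway from the bottom. The bars reach 3.10% and 2.20% in proline and between 0.301% and 0.369% in the 4 glutamine libraries.

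The 2 proline libraries differed in the same direction for every member. All 9 genes were higher in proline replicate 1 than in replicate 2, where 60% of the tested genes were. The gap ranged from 0.24 (CPA1) to 0.85 (ARG3) on the log2 scale with a median of 0.50, while the median gap of all tested genes was 0.06. Members with the largest gaps, ARG3 and ARG2, also had the largest standard errors, which are computed in part from these gaps. Without proline replicate 1 the log2 fold change of ARG3 was 4.33 and that of ARG2 was 1.81. With any 1 library left out all 9 log2 fold changes stayed above 0.

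**Figure D5:**
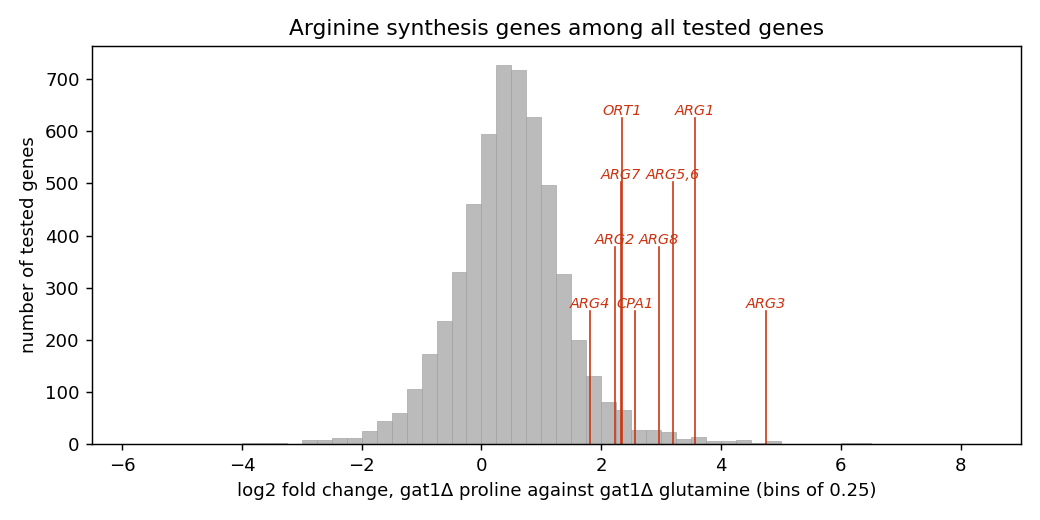
Number of tested genes by log2 fold change for proline against glutamine in gat1Δ (bins of 0.25), with the 9 genes marked by lines whose heights only separate the labels. The members lie from 1.81 to 4.76, to the right of the bulk of genes, whose median is 0.50.

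Partners of the pathway were read from a list of 12 genes, of which 9 rose and 1 fell in proline (median log2 1.499), against 8 and 3 after TMM rescaling. The counts of this list and of those below stand beside 56.5% of all tested genes higher and 15.1% lower. After TMM rescaling these shares were 33.8% and 29.8%. The attenuator peptide frame YOR302W (chromosome 15), 56 bases before CPA1 on the same strand, also rose, from 25.1 and 19.5 to 127 and 99.95 (log2 2.35 ± 0.19, adjusted p = 1.53e-05). Its density stayed at 3.55 to 4.74 times that of CPA1 in the 6 libraries. How reads across the edges of this short feature were counted is not given in the sources used here.

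Enzymes that supply glutamate and glutamine rose as well. GLN1, for glutamine synthetase, rose by 4.17 ± 0.14 on the log2 scale, GDH3, for the minor glutamate dehydrogenase that uses NADPH, by 3.72 ± 0.18, GLT1, for glutamate synthase, by 1.64 ± 0.13, and GDH1, for the main such dehydrogenase, by 1.04 ± 0.18. IDP1, for mitochondrial isocitrate dehydrogenase, rose by 1.57 ± 0.14, and the aspartate aminotransferase genes AAT1 and AAT2 by 1.42 ± 0.20 and 0.66 ± 0.13. The call of AAT2 ended after TMM rescaling (log2 0.16, adjusted p = 0.409). AGC1, for a mitochondrial carrier of aspartate and glutamate, stood at 0.02 ± 0.15 and ADE12, for adenylosuccinate synthetase, at 0.01 ± 0.15, without a call. After TMM rescaling both were called lower, at -0.43 and -0.49. ADE13, for adenylosuccinate lyase, fell by 0.99 ± 0.13.

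Of 6 regulator genes 5 rose and none fell, against 4 and 1 after TMM rescaling, while 56.5% of all tested genes rose (33.8% after TMM rescaling). GCN4 had the highest levels, with densities of 10.5 and 9.06 in glutamine and of 46.8 and 43.5 in proline (log2 2.21 ± 0.16, adjusted p = 9.72e-06). ARG80 rose by 2.03 ± 0.20 and ARG81 by 1.84 ± 0.19, and MCM1 by 1.08 ± 0.15. GCN2, for the kinase that senses uncharged tRNA, rose by 0.77 ± 0.14, a call that ended after TMM rescaling (adjusted p = 0.0509). ARG82, which also encodes an inositol polyphosphate kinase, stood at -0.21 ± 0.15 without a call, and at -0.59 with a call (adjusted p = 0.00366) after TMM rescaling. The amount of Gcn4 protein is known to be set in large part by translation, which these transcript levels do not measure.

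The 3 genes of nonsense-mediated decay, known in yeast to act on the CPA1 mRNA, all rose, UPF3 by 1.52 ± 0.16, NMD2 by 1.07 ± 0.17 and NAM7 by 0.68 ± 0.12. Of all tested genes 56.5% rose. The call of NAM7 ended after TMM rescaling (adjusted p = 0.228). Their changes were all smaller than that of CPA1.

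Genes of arginine breakdown and of the routes from ornithine to proline and polyamines were read from a list of 7. Of these 1 rose and 3 fell (median log2 -0.03), against 0 and 4 after TMM rescaling. CAR1, for arginase, had densities of 0.541 and 0.598 in glutamine and 0.603 and 0.512 in proline, without a call (log2 -0.03 ± 0.14), and after TMM rescaling it was called lower at -0.52. CAR2, for ornithine transaminase, fell by 2.15 ± 0.14, while SPE1, for ornithine decarboxylase, stood at 0.20 ± 0.14 without a call (adjusted p = 0.205), and at -0.29 after TMM rescaling, again without one. Further along these routes PRO3, for the last step of proline synthesis, fell by 1.02 ± 0.16 and the spermidine synthase gene SPE3 by 0.74 ± 0.12. SPE2, for the decarboxylase that feeds spermidine synthesis, rose by 0.50 ± 0.12, a call that ended after TMM rescaling (log2 0.01).

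Of 8 genes tested for arginine uptake and vacuolar transport of basic amino acids 6 rose and 1 fell, against 5 and 1 after TMM rescaling. Over all tested genes 56.5% rose and 15.1% fell, against 33.8% and 29.8% after TMM rescaling. CAN1, for the arginine permease, went from densities of 1.18 and 1.44 to 11.05 and 12.7 (log2 3.16 ± 0.16, adjusted p = 1.16e-06). GAP1, whose product takes up most amino acids, rose by 6.04 ± 0.19 and RTC2, for a vacuolar membrane protein, by 3.81 ± 0.26, while AGP1, for a broad amino acid permease, fell by 2.88 ± 0.21.

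Pyrimidine synthesis, which also begins with carbamoyl phosphate but makes its own through Ura2, went the other way for most genes. Of 9 genes 6 fell and 2 rose (median log2 -0.52), against 7 and 1 after TMM rescaling. URA1, for dihydroorotate dehydrogenase, fell by 1.59 ± 0.13 and URA4, for dihydroorotase, by 1.31 ± 0.13, and URA10, for the minor orotate phosphoribosyltransferase, rose by 3.24 ± 0.28. Of 48 genes tested for the synthesis of other amino acids under general control 35 rose and 6 fell, against 26 and 10 after TMM rescaling. Over all tested genes 56.5% rose, or 33.8% after TMM rescaling. The median log2 fold change of the 48 genes was 1.09, beside 2.57 for the arginine genes. BAT2, for a branched-chain transaminase, rose by 3.34 ± 0.14, ARO3, for the entry into aromatic amino acid synthesis, by 2.62 ± 0.15 and LEU4, for leucine synthesis, by 2.23 ± 0.15, while SER3 fell by 1.34 ± 0.15. These lists were described by counts, and the difference between them and the arginine genes was not tested.

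By a fixed rule the 5 other genes nearest in pattern were named, that is, those with the smallest Euclidean distance from the mean centred log2 density of the 9 members over the 6 libraries. ISA1, for mitochondrial iron-sulfur cluster assembly, lay at a distance of 0.217, with densities of 0.457 and 0.430 in gat1Δ cells on glutamine, 4.23 and 2.98 on proline, and 0.366 and 0.336 in dal80Δ cells. SLX9 and BUD21, both for factors of small ribosomal subunit assembly, lay at 0.265 and 0.302, DCG1, of unknown function, at 0.284, and ARO3 at 0.309. DCG1 had densities of only 0.0301 to 0.0512 in the glutamine libraries, close to the pseudocount of 0.0229, so its distance depends in part on that constant. ARO3 is the only amino acid synthesis gene among the 5, and with 6 libraries dominated by the rise in proline such nearness is a description only.

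The second comparison was between dal80Δ and gat1Δ cells, both on glutamine, and it shares the gat1Δ glutamine libraries with the first. None of the 9 genes was called by limma at the 0.05 threshold, while 5.45% of all tested genes were (3.97% higher and 1.48% lower in dal80Δ), and 2 members had an unadjusted p under 0.05. The count of members was 0 as well where other scalings or tools called 7.08% (TMM), 7.26% (RLE), 2.54% (snoRNA), 8.1% (edgeR), 9.35% (DESeq2) or 3.72% (replicate block) of all tested genes. The median log2 difference of dal80Δ to gat1Δ was -0.27, beside -0.15 over all tested genes, and after TMM rescaling the 2 medians were -0.11 and -0.01. In 7 of the 9 genes both dal80Δ libraries lay below both gat1Δ libraries, as they did for 46.4% of all tested genes, a share that the shift of the median moves. The 2 exceptions were ARG3 and CPA1, whose libraries overlapped.

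ARG1 had densities of 4.76 and 5.66 in dal80Δ against 6.64 and 6.996 in gat1Δ, a log2 difference of -0.39 with a 95% interval of -0.82 to 0.04 (adjusted p = 0.205 in limma's test). ARG7 had 1.77 and 2.07 against 2.57 and 2.49, the largest difference of the 9, with an interval from -0.73 to -0.07 before adjustment (log2 -0.40, adjusted p = 0.13). ORT1 had 0.334 and 0.341 against 0.461 and 0.426 (log2 -0.37, adjusted p = 0.176), and ARG4 had 8.13 and 9.20 against 10.6 and 11.9 (log2 -0.38, adjusted p = 0.207). These 4 genes, among the 7 members lower in both dal80Δ libraries, did not pass the test. Of all tested genes 46.4% showed the same separation.

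The mitochondrial genes ARG2, ARG8 and ARG5,6 differed by less. ARG2 had 0.129 and 0.154 in dal80Δ against 0.172 and 0.159 (log2 -0.20, interval -0.75 to 0.35), ARG8 had 0.975 and 1.02 against 1.26 and 1.07 (log2 -0.21, interval -0.59 to 0.16), and ARG5,6 had 2.26 and 2.18 against 2.42 and 2.28 (log2 -0.08, interval -0.47 to 0.31). ARG3 had 0.681 and 0.779 against 1.07 and 0.721 (log2 -0.27, interval -0.89 to 0.36), so that gat1Δ glutamine replicate 1 stood apart from the other 3. CPA1 was the only member with a positive difference, at 6.13 and 5.22 against 5.31 and 5.02 (log2 0.13, interval -0.20 to 0.47). The sign for ARG5,6 turned after TMM rescaling. The intervals leave room for differences of up to 0.89 on the log2 scale, so the strains cannot be called alike for these genes.

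Around the pathway the strains differed for a few genes. By limma 3.97% of all tested genes were higher in dal80Δ and 1.48% lower. In either direction edgeR called 8.1% and DESeq2 9.35%. Of the 12 partner genes ADE13 was lower in dal80Δ cells, with a log2 difference of -0.63 ± 0.13 (adjusted p = 0.0318), a call that ended after TMM rescaling (adjusted p = 0.131) and with edgeR (adjusted p = 0.127) but not with DESeq2 (adjusted p = 0.0474). GDH3 had densities of 0.0684 and 0.0607 in dal80Δ against 0.0389 and 0.0417, which limma did not call (log2 0.47, adjusted p = 0.137). It was called higher by edgeR (log2 0.83, adjusted p = 0.0306) and by DESeq2 (log2 0.82, adjusted p = 0.0103). None of the 6 regulator genes and none of the 9 pyrimidine genes was called by limma, edgeR or DESeq2, while 1 and 5 of them had an unadjusted p under 0.05 in limma, and GCN4 had densities of 7.40 and 9.46 against 10.5 and 9.06. CAR2 was higher in dal80Δ, at 0.740 and 0.723 against 0.417 and 0.445 (log2 0.73 ± 0.14, adjusted p = 0.0173), while CAR1 was not called at 0.643 and 0.623 against 0.541 and 0.598. Of the 8 uptake and vacuolar genes 4 were higher and none lower, led by GAP1 (log2 2.82 ± 0.19), AGP1 (1.57 ± 0.21) and CAN1 (1.03 ± 0.16). Of the 48 other amino acid synthesis genes 2 were lower, SER3 (-0.78 ± 0.15) and SER2 (-0.60 ± 0.13), and none higher, and the call of SER2 ended after TMM rescaling (adjusted p = 0.0765).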

How the data were processed

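The submitters' processing notes name TopHat, without a version, and genome build R64. Libraries were made from rRNA-depleted RNA with a stranded kit, per the labels' protocols. The authors deposited a table of 6192 features with a normalised density signal and a read count per library, per the file headers. The signal equals the deposited read count divided by the feature length. Counts were whole in gat1Δ proline replicate 1, and in the other libraries whole reads were recovered for 100% of positive values (tolerance 0.01). Neither the counting program nor its strand rule is given in the sources used here. Another 6 columns of group values were not used, and 3 lines of the table were not analysed here.

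A gene was tested if 2 or more libraries held 10 or more scaled reads of it, which 5594 genes did. The test was limma 3.58.1 (R 4.3.3). Its input was log2(density + 0.0229), where the added pseudocount is the 5th percentile of the positive values and makes changes of low genes look smaller. The fit held all 6 libraries, group as the only factor, an intensity trend and 3 residual degrees of freedom, and the adjusted p threshold was 0.05. Replicates are called biological in the labels. The p-values rest on the spread between replicates pooled over the 3 groups, which limma moderates toward a trend over all tested genes. edgeR 4.0.16 and DESeq2 1.42.0 were run on the recovered reads as alternatives. Of 5764 genes found in the RefSeq R64 annotation, 99.5% had the same coordinates. Members, lists, motifs and tests were chosen with earlier results of these data known. Named were all members, partners, regulators and decay genes (except 1 partner, which is not reported here), of each other list up to 3 genes with the smallest adjusted p per comparison and the largest opposite change, and the 5 nearest profiles. CAR1 and SPE1 were named after their values had been seen. YPQ1 and YPQ2 were not found under those names. The fit was tested on simulated data.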

Additional observations from a re-analysis of the deposited data

How the results depend on the processing

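For proline against glutamine all 9 genes stayed past the threshold and higher under every alternative with 2 libraries in each group. There 2465 (snoRNA scaling) to 4110 (crossed replicate block, described below) of the tested genes were called in either direction. With 1 library left out all 9 log2 fold changes stayed above 0, and their median was 2.44 to 2.69. The median moved to 2.06 with TMM scaling, 2.01 with RLE scaling, 2.07 with edgeR and 2.01 with DESeq2. Each move was larger than 0.368, the SD of the members' median log2 density over the 2 proline libraries. For dal80Δ against gat1Δ the count was 0 under every alternative with 2 libraries in each group. There 115 (adjusted p of 0.01) to 523 (DESeq2) of the tested genes were called in either direction. The median with 1 library left out was -0.36 to -0.15. Signs turned for ARG5,6 under TMM (0.0767), RLE (0.0695), edgeR (0.0774) and DESeq2 (0.0701), and for ARG3 without gat1Δ glutamine replicate 1 (0.0138), the highest of its values with 1 library left out, of which the lowest was -0.546, without replicate 2 of the same group. The cause was not tested. The replicate number as a block left the counts at 9 and 0 and the medians at 2.57 and -0.27. The differences between replicates 1 and 2 correlated over genes at 0.00984 between gat1Δ glutamine and gat1Δ proline. The correlation was -0.0793 between gat1Δ proline and dal80Δ, and -0.250 between gat1Δ glutamine and dal80Δ. Whether libraries of different groups shared a batch was not tested. Crossing the numbers of dal80Δ, an alternative chosen after seeing the data, gave 9 and 0 too. For the strains it called 409 of the tested genes in either direction, instead of 305. Over all tested genes snoRNA scaling gave 2465 calls for proline instead of 4006, and for the strains 142 instead of 305. With a pseudocount 10 times larger the log2 rise of ARG2 in proline was 1.48 instead of 2.23, since its level in glutamine is low. Depth limits ARG2 most, with 339 reads in 1 library.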

Other observations

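The genes next to the 9 members on their chromosomes were read as well. Of 17 such neighbours tested 11 rose and 2 fell in proline in limma's test, beside 56.5% and 15.1% of all tested genes, with a median log2 fold change of 0.73 beside 2.57 for the members. None of the neighbours shared bases with a member. Only 2 of the 17 rose as much as the least changed member, namely YOR302W, the attenuator peptide frame before CPA1, and PSF2, for a replication protein, on the opposite strand 269 bases before ARG2. PSF2 rose by 2.21 (adjusted p = 6.37e-05), close to the 2.23 of ARG2. On the same strand RNR1, for ribonucleotide reductase, 948 bases beyond ARG5,6, had a log2 fold change of -3.77 (adjusted p = 2.41e-06), and YOL057W, 293 bases beyond ARG1, had -0.57 (adjusted p = 0.00573). DED81, for asparaginyl-tRNA synthetase, which lies 491 bases before ARG4 on the same strand, stood at 0.12 without a call (adjusted p = 0.426), and CDC33, for the cap-binding protein, which faces ARG8 from 352 bases away, at 0.06 (adjusted p = 0.700).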
